A study of Homo sapiens with 12 samples.

Results

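The miR-30 family was followed through a SLAMseq experiment in Huh7 cells, a human hepatocellular carcinoma line. The members were taken by name from the deposited miRNA tables: hsa-miR-30a-5p, hsa-miR-30b-5p, hsa-miR-30c-5p, hsa-miR-30d-5p, hsa-miR-30e-5p, hsa-miR-30a-3p and hsa-miR-30e-3p, which are 7 of the 2652 mature miRNAs listed. There were 12 libraries, 4 in each of 3 conditions, and every culture received DMSO or PlaB for 4 h. Control cells were given DMSO without 4-thiouridine (4SU), DMSO cells were given DMSO with 500 µM 4SU, and PlaB cells were given pladienolide B, an inhibitor of the splicing factor SF3B1, with 500 µM 4SU. The study's methods give 1 µM PlaB unless stated otherwise, and their SLAMseq part gives 500 µM for 4SU alone. The sample labels give 500 µM for PlaB, so labels and methods differ on the dose. The labels give DMSO replicates 1 and 2 as combinations of several sequencing runs. Counted reads ranged from 1522210 to 3880241 per library. miR-122-5p, the hepatocyte miRNA, ranked number 3 by reads in each of the 12 libraries, at 55353 to 105331 CPM (read counts scaled to a common library total). Together the 7 members took 4.40% to 5.63% of the reads of a library.

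The miR-30 miRNAs are a family that is widely expressed in epithelia and in liver, where its members repress, among others, the autophagy gene BECN1 and the epithelial-mesenchymal transition gene SNAI1. Each mature miRNA is cut from a hairpin, whose 5p and 3p arms give separate strands, and the 5p strands of the family share a seed (bases 2 to 8), the part that pairs with targets. During labelling, 4SU takes the place of uridine in newly made RNA, and after chemical conversion the labelled position is read as C instead of T. The T>C conversion rate of a miRNA is the number of such conversions divided by the number of T positions that its reads covered. It is given here in percent, with Control as the background without 4SU.

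The sequences are shown because they hold the T positions at which conversions were counted and because members of the family differ by single bases. The sequences of 5 of the 7 members are given, from RefSeq (GRCh38.p14), and capitals mark the seed. The first 3 lines share the seed GUAAACA and the last 2 share UUUCAGU.
miR-30a-5p: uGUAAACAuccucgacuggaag
miR-30c-5p: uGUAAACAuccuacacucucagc
miR-30e-5p: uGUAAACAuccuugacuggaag
miR-30a-3p: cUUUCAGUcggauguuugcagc
miR-30e-3p: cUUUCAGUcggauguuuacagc

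Counted from the 5′ end, the single difference from miR-30e-5p to miR-30a-5p is U13C, and from miR-30e-3p to miR-30a-3p it is A18G. U13C is the same letter change as a T>C conversion. A miR-30e-5p read converted at position 13 therefore has the letters of miR-30a-5p, and these reads cannot be told apart by sequence. Among the 127 of 143 tested miRNAs with a sequence in the table, 3 ordered pairs of equal length differed by a single U-to-C change, from miR-19a-3p to miR-19b-3p, from miR-27b-3p to miR-27a-3p and from miR-30e-5p to miR-30a-5p. The number of T positions offered by a read was 4 for miR-30d-5p, 5 for miR-30a-5p, 6 for miR-30b-5p, miR-30c-5p and miR-30e-5p, and 8 for miR-30a-3p and miR-30e-3p. The deposited T content of miR-30c-5p was 12 because it is summed over its 2 loci, whereas its reads covered 5.99 T positions each on average.

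The family comes from 6 hairpins on 3 chromosomes (GRCh38, GENCODE 44). MIR30E (chromosome 1, 40754355 to 40754446) and MIR30C1 (chromosome 1, 40757284 to 40757372) both lie on the plus strand in an intron of NFYC, which encodes a subunit of a CCAAT-binding factor. MIR30A (chromosome 6, 71403551 to 71403621) lies on the minus strand in an intron of the lncRNA LINC00472. MIR30C2 (chromosome 6, 71376960 to 71377031, minus strand) lies in an exon of 1 of the 41 annotated LINC00472 transcripts. MIR30B (chromosome 8, 134800520 to 134800607) and MIR30D (chromosome 8, 134804876 to 134804945) lie on the minus strand in introns of the lncRNA ENSG00000289405. Mature miR-30c-5p is identical at MIR30C1 and MIR30C2, and 98.2% to 99.8% of its reads per library were counted as mapping to several places. Its values are the sum of both loci. Of all miR-30a-5p and miR-30d-5p reads, 0 were multi-mapping, and of 584128 miR-30e-5p reads 19 were.

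In total reads the family was led by miR-30e-5p, miR-30d-5p and miR-30c-5p. In DMSO, miR-30e-5p stood at 21702 ± 1170 CPM (SD, n = 4), miR-30d-5p at 14784 ± 1479 and miR-30c-5p at 11166 ± 1929. The other 5p strands were far lower, with miR-30b-5p at 855 ± 219 CPM and miR-30a-5p at 684 ± 107 CPM in DMSO. Of the 3p strands, miR-30e-3p reached 910 ± 79.1 CPM, whereas miR-30a-3p had 229 reads over all 12 libraries and 4.20 to 13.2 CPM. miR-30a-3p is the single member below the minimum of 100 CPM in every library that defined the 143 tested miRNAs, so 6 of the 7 members were tested.

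**Figure D1:**
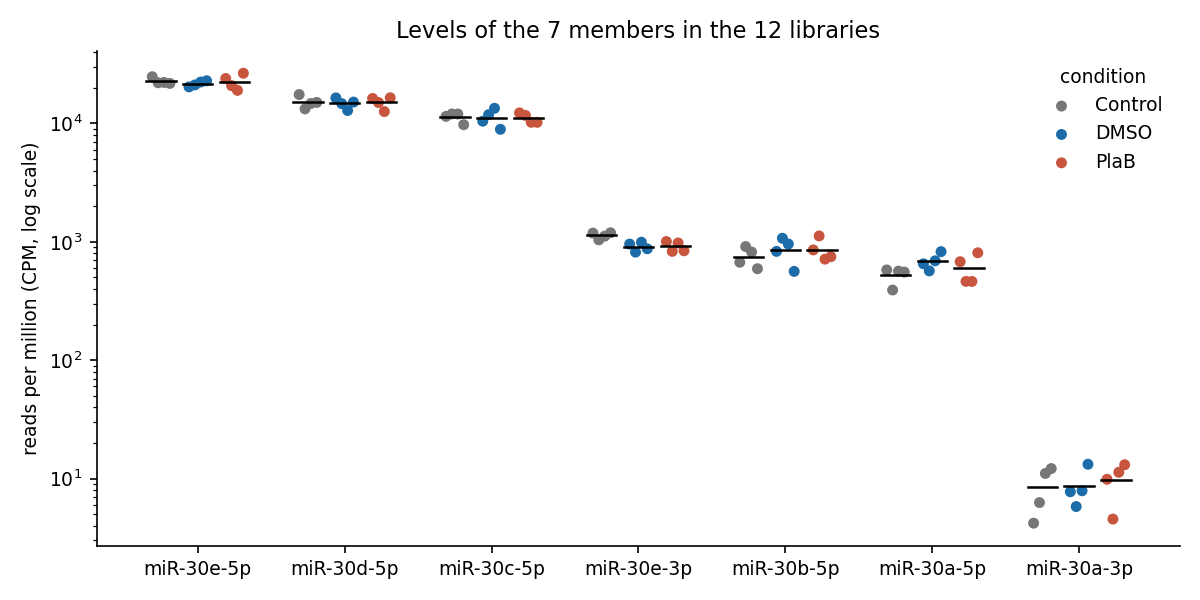
Level of each of the 7 members in CPM on a log scale, with a point for each of the 12 libraries and a line at the mean of each condition. miR-30e-5p, miR-30d-5p and miR-30c-5p lie at 8923 CPM or more in every library, miR-30e-3p, miR-30b-5p and miR-30a-5p between 391 and 1192 CPM, and miR-30a-3p between 4.20 and 13.2 CPM.

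Labelling did not follow this order. The study states that U content also influences labelling. By its account the method cannot directly compare synthesis between different miRNAs, so the order below describes T>C conversion rates alone. In DMSO the T>C conversion rate was 1.50% ± 0.203 (SD, n = 4) for miR-30a-5p and 1.12% ± 0.182 for miR-30e-3p. It was 0.160% ± 0.0194 for miR-30c-5p, 0.0982% ± 0.0139 for miR-30d-5p and 0.0203% ± 0.00549 for miR-30e-5p, and 0 for miR-30b-5p. The median over the 143 tested miRNAs was 0.187%, so that among the strands with the same seed miR-30a-5p lay above the median and miR-30c-5p, miR-30d-5p, miR-30e-5p and miR-30b-5p below it. By rate miR-30a-5p ranked number 6 of the 143, miR-30e-3p number 9, miR-30c-5p number 79, miR-30d-5p number 102, miR-30e-5p number 132 and miR-30b-5p number 140, which it shares with the other miRNAs without a conversion.

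The 4 DMSO libraries of miR-30a-5p, in replicate order, had rates of 1.38%, 1.31%, 1.76% and 1.56%. Those of miR-30e-3p were 0.990%, 1.00%, 1.38% and 1.10%. The ranges of these members overlapped, although miR-30a-5p was the higher in 4 of 4 libraries (exact sign-flip test, two-sided p = 0.125, the smallest that 4 pairs allow). The DMSO rates of miR-30c-5p were 0.182%, 0.150%, 0.169% and 0.139%. Those of miR-30d-5p were 0.0843%, 0.117%, 0.0973% and 0.0936%. Those of miR-30e-5p were 0.0242%, 0.0226%, 0.0122% and 0.0224%. Below miR-30e-3p no neighbours in this order overlapped in DMSO, with miR-30e-3p 6.98-fold above miR-30c-5p, miR-30c-5p 1.63-fold above miR-30d-5p and miR-30d-5p 4.83-fold above miR-30e-5p. Each was the higher in 4 of 4 libraries, again at the smallest p of 0.125. In PlaB the order was the same, but miR-30c-5p and miR-30d-5p then overlapped, as did miR-30a-5p and miR-30e-3p.

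**Figure D2:**
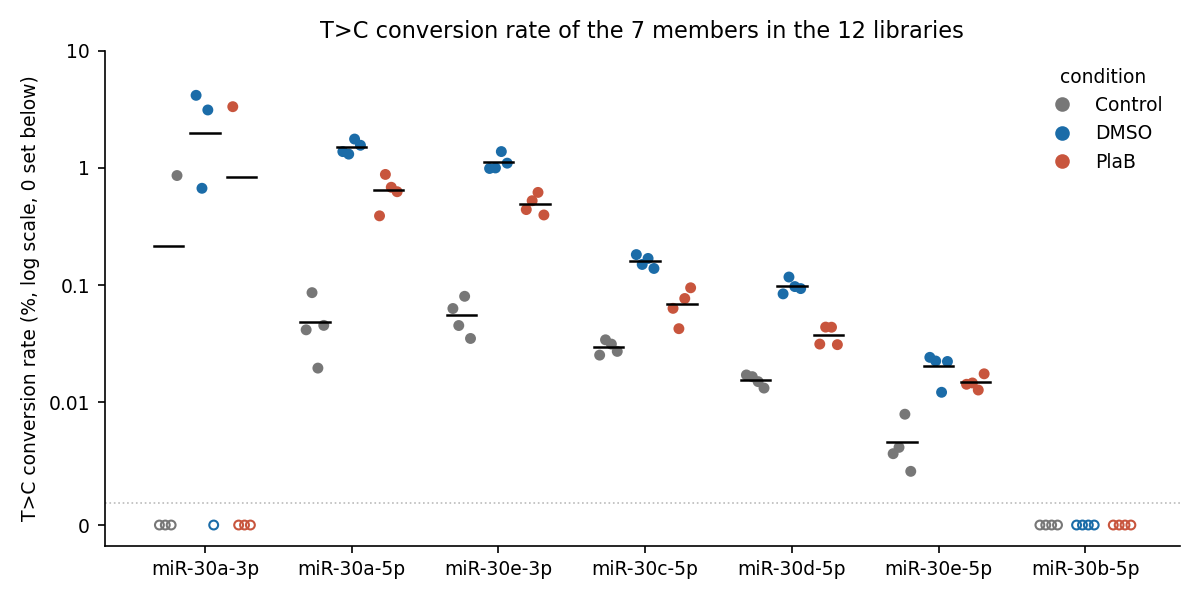
T>C conversion rate of each of the 7 members in percent on a log scale, with a point for each of the 12 libraries, a line at the mean of each condition and open circles at the bottom for libraries without a conversion. Mean DMSO rates of the 6 members above 100 CPM run from 1.50% for miR-30a-5p down to 0.0203% for miR-30e-5p and to 0 for miR-30b-5p in all 12 libraries. The miR-30a-3p points rest on 7 to 30 reads per library.

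Among the 5 tested members with conversions, the contrast was sharpest between miR-30a-5p and miR-30e-5p, which differ at 1 of 22 bases. The log2 ratio of their rates within a library (0.5 conversions added) was 6.24 ± 0.626 in DMSO (SD, n = 4) and 5.40 ± 0.519 in PlaB. They already differed without 4SU, with mean Control rates of 0.0483% for miR-30a-5p and 0.00458% for miR-30e-5p. miR-30e-5p had 238815 reads in the DMSO libraries and miR-30a-5p had 7420. Of these, 293 miR-30e-5p reads and 506 miR-30a-5p reads carried a T>C conversion, so the rarer strand had more converted reads in absolute number. Scaled to library totals in the same way as CPM, converted reads in DMSO were 47.4 ± 9.53 for miR-30a-5p and 25.5 ± 6.22 for miR-30e-5p. For the other tested members with conversions they were 108 ± 25.5 for miR-30c-5p, 75.7 ± 13.9 for miR-30e-3p and 57.5 ± 8.00 for miR-30d-5p. On this scale these 5 members spanned 4.21-fold, whereas their total levels in CPM spanned 31.7-fold. Both spans leave out miR-30b-5p, which had 9781 reads and no converted read in DMSO.

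The arms of a single hairpin also differed. miR-30e-3p had 4.20% ± 0.436 as many reads as miR-30e-5p in DMSO (SD, n = 4), yet its T>C conversion rate was 40.9 to 113 times as high in the 4 DMSO libraries (median 46.8). In PlaB the rate ratio was 22.7 to 48.5, and in Control, without 4SU, it was 10.1 to 17.3. For the MIR30A hairpin the 3p arm was too shallow for such a comparison. In DMSO miR-30a-3p had 15 conversions over 725 covered T positions, 10, 1, 4 and 0 in the 4 libraries, and in PlaB it had 4, 0, 0 and 0.

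miR-30b-5p had no T>C conversion in any library although its level was close to that of miR-30e-3p and above that of miR-30a-5p. Its reads covered 37029 T positions in Control, 58200 in DMSO and 36375 in PlaB, and the limit that a count of 0 allows (3 conversions) is a rate of 0.00515% in DMSO. The DMSO rate of miR-30e-5p, the lowest of the labelled members, lay above that limit. In Control the same limit was 0.00810%, under the median Control rate of 0.0178% over the tested miRNAs but above the 0.00458% of miR-30e-5p. miR-30b-5p thus had no counted conversion with or without 4SU. Whether its 0 in DMSO reflects low labelling was not tested. The other arm of the same hairpin, miR-30b-3p, was counted with 25 conversions over 581 covered T positions in DMSO, or 11, 5, 4 and 5 in the 4 libraries, and none in Control. The authors masked positions with a high variant fraction before counting, and its part in the 0 of miR-30b-5p was not tested.

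**Figure D3:**
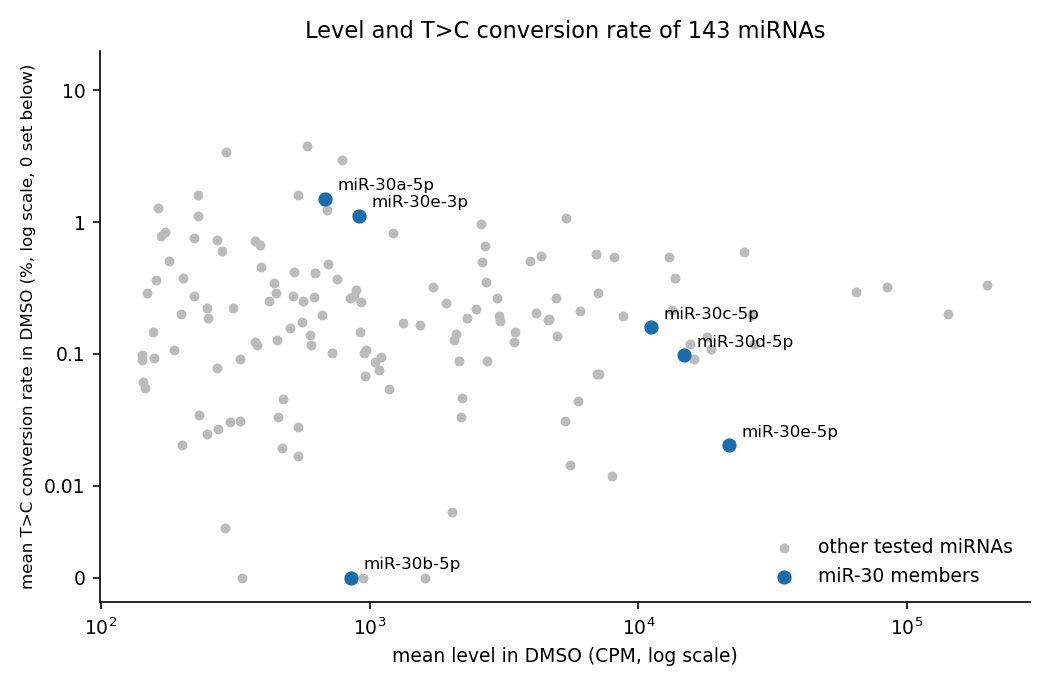
Mean T>C conversion rate (percent, log scale) against mean level (CPM, log scale) in DMSO for the 143 tested miRNAs, with the 6 tested members in blue and miRNAs without a conversion set at the bottom. The members span the plot from 1.50% at 684 CPM for miR-30a-5p to 0.0203% at 21702 CPM for miR-30e-5p, and 0 at 855 CPM for miR-30b-5p.

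Over the whole set the rate was weakly related to level and to covered positions. Across the 143 miRNAs, Spearman's rho between mean CPM and mean rate in DMSO was -0.050, and between T positions covered per read and rate it was -0.189. Both are descriptions across miRNAs of the same 4 libraries, and miRNAs are not independent replicates.

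Label above background was then asked for by comparing DMSO with Control. All 5 of the tested members with conversions rose. In the edgeR quasi-likelihood fit, in which 82.5% of the 143 miRNAs were higher in DMSO, the log2 fold change of conversions per covered T position was 4.93 (SE 0.452, adjusted p = 5.21e-14) for miR-30a-5p and 4.33 (SE 0.331, adjusted p = 8.83e-17) for miR-30e-3p. It was 2.66 (SE 0.301, adjusted p = 4.14e-11) for miR-30d-5p, 2.43 (SE 0.261, adjusted p = 7.89e-12) for miR-30c-5p and 2.17 (SE 0.369, adjusted p = 8.73e-07) for miR-30e-5p. The median was 2.66 over these 5 members and 3.18 over the 139 tested miRNAs with conversions in DMSO. In each of the 5 all DMSO libraries lay above all Control libraries (exact permutation test, two-sided p = 0.0286, the smallest that 4 against 4 libraries allow), as they did for 70.6% of the tested miRNAs.

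The background itself was uneven between members. In Control, miR-30e-3p had a rate of 0.0560% ± 0.0200 and miR-30a-5p 0.0483% ± 0.0278 (SD, n = 4). miR-30c-5p had 0.0296% ± 0.00402, miR-30d-5p 0.0155% ± 0.00175 and miR-30e-5p 0.00458% ± 0.00233, against a median of 0.0178% over the tested miRNAs. The miR-30a-5p value rests on 2, 4, 1 and 3 conversions in the 4 Control libraries, and that of miR-30e-5p on 9, 13, 19 and 8. The mean DMSO rate was 31.2 times the mean Control rate for miR-30a-5p, 19.95 times for miR-30e-3p, 6.33 times for miR-30d-5p, 5.42 times for miR-30c-5p and 4.44 times for miR-30e-5p.

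PlaB was compared with DMSO to ask how inhibition of SF3B1 changed the labelling. Conversions fell in 4 of the 5 members, in a fit in which 48.3% of the 143 miRNAs were lower in PlaB. For miR-30a-5p the PlaB rates were 0.391%, 0.881%, 0.685% and 0.627%, all below the DMSO range of 1.31% to 1.76%. edgeR gave a log2 change of -1.22 with an SE of 0.327 (adjusted p = 0.00192). For miR-30e-3p the PlaB rates were 0.442%, 0.526%, 0.619% and 0.397%, and the log2 change from edgeR was -1.17 with an SE of 0.272 (adjusted p = 0.000424).

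Of the 3 abundant 5p strands, miR-30c-5p and miR-30d-5p fell and miR-30e-5p did not pass. miR-30c-5p had PlaB rates of 0.0635%, 0.0426%, 0.0770% and 0.0951%, a log2 change of -1.21 with an SE of 0.246 (edgeR, adjusted p = 8.14e-05). miR-30d-5p had PlaB rates of 0.0315%, 0.0439%, 0.0438% and 0.0311%, a log2 change of -1.39 with an SE of 0.280 (edgeR, adjusted p = 7.20e-05). In these 4 members the highest PlaB rate was under the lowest DMSO rate (exact permutation test, two-sided p = 0.0286, adjusted over the 5 members 0.0357), as in 46.2% of the tested miRNAs. The PlaB rates of miR-30e-5p were 0.0143%, 0.0147%, 0.0128% and 0.0175%, which overlapped the DMSO range through DMSO replicate 3 at 0.0122%, and the log2 change was -0.46 with an SE of 0.333 (edgeR, adjusted p = 0.274, exact permutation p = 0.143). In the 12 fits that left out a single library, DMSO replicate 3 included, the adjusted p of miR-30e-5p ranged from 0.151 to 0.457 (edgeR). The median over the 5 members was -1.21, and over the 139 miRNAs it was -1.30.

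In PlaB all 5 stayed above the background without 4SU. Against Control, in a fit in which 53.8% of the tested miRNAs were higher in PlaB, the log2 fold change was 3.71 (adjusted p = 2.67e-09, edgeR) for miR-30a-5p and 3.16 (adjusted p = 9.43e-12, edgeR) for miR-30e-3p. It was 1.72 (adjusted p = 0.000123) for miR-30e-5p, 1.27 (adjusted p = 0.000455) for miR-30d-5p and 1.22 (adjusted p = 8.90e-05) for miR-30c-5p in the same edgeR fit. For all 5 the PlaB and Control libraries did not overlap, as for 38.5% of the tested miRNAs in this direction. This comparison shares its libraries with both others.

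**Figure D4:**
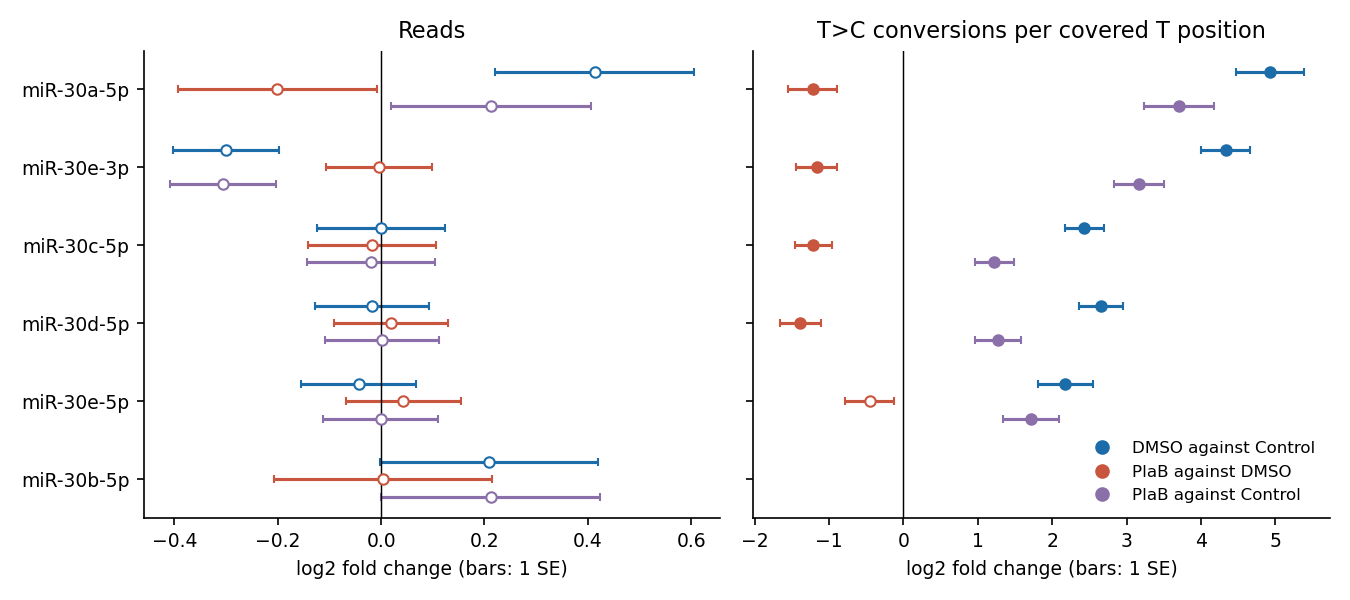
Log2 fold changes of reads (left) and of T>C conversions per covered T position (right) for the tested members. Values are from edgeR without a block for the replicate number, with bars of 1 SE and filled points for an adjusted p under 0.05. On the right every value but that of miR-30e-5p in PlaB against DMSO is filled, and on the left none is. miR-30b-5p has no value on the right because it had no conversion.

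The study's own measure of the PlaB effect divides the PlaB rate by the DMSO rate after subtraction of the Control rate from both. This ratio was 0.267 for miR-30d-5p, 0.306 for miR-30c-5p, 0.410 for miR-30a-5p, 0.414 for miR-30e-3p and 0.649 for miR-30e-5p. Formed within each replicate number, it had an SD of 0.0625, 0.223, 0.163, 0.0665 and 0.278 in the same order. For miR-30c-5p the replicates gave 0.243, 0.0721, 0.331 and 0.607, so that its place in the order was not set beyond their spread. For miR-30e-5p they gave 0.516, 0.571, 1.13 and 0.757. Without the subtraction the ratios were 0.383 for miR-30d-5p, 0.429 for miR-30a-5p, 0.434 for miR-30c-5p, 0.444 for miR-30e-3p and 0.728 for miR-30e-5p, so that miR-30c-5p moved from the second to the third place. The values of miR-30d-5p, miR-30c-5p and miR-30e-5p then lay above their ranges with single libraries left out, which were 0.241 to 0.293, 0.241 to 0.375 and 0.554 to 0.708.

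Whether the PlaB effect differed between members was tested directly on the ratio of the rates of a pair of members in the same library, for all 10 pairs of the 5 members. By exact permutation test, 0 pairs passed after adjustment (smallest adjusted p = 0.143) and 2 had an unadjusted p of 0.0286. Both involved miR-30e-5p. Relative to it, the rate of miR-30d-5p changed by a log2 value of -0.97 (SE 0.332) from DMSO to PlaB and that of miR-30c-5p by -0.84 (SE 0.348), and the DMSO and PlaB libraries did not overlap in either ratio. miR-30a-5p relative to miR-30e-5p had a value of -0.84 (SE 0.407, exact permutation p = 0.0857, adjusted p = 0.214). The arms of the MIR30E hairpin differed by 0.76 (SE 0.404, exact permutation p = 0.0857, adjusted p = 0.214), with miR-30e-5p the less reduced. Among the other 4 members the values lay between -0.21 and 0.13, with SEs of 0.162 to 0.419, so differences within these errors could not be seen.

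Total levels were compared in the same way. No member passed in any contrast of the read counts in edgeR without a block for the replicate number. With the block, given below, miR-30e-3p and miR-30a-5p passed in DMSO against Control, and miR-30e-3p also in PlaB against Control. In the fit without it, 1.4% of the 143 miRNAs were higher and 2.8% lower in DMSO than in Control. The shares were 0% higher and 0.699% lower in PlaB than in DMSO, and 0% higher and 3.5% lower in PlaB than in Control. At an unadjusted p under 0.05 there was 1 of the 6 tested members in DMSO against Control, beside 20 of all 143 miRNAs, 0 in PlaB against DMSO, beside 4 of 143, and 1 in PlaB against Control, beside 10 of 143. The member was miR-30e-3p both times. DESeq2 called miR-30e-3p in DMSO against Control (adjusted p = 0.0181), with 2.1% of the tested miRNAs higher and 4.9% lower, and no member in the other contrasts.

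miR-30e-3p stood at 1185, 1039, 1116 and 1192 CPM in Control. It stood at 957, 818, 992 and 873 CPM in DMSO, and at 1005, 830, 978 and 840 CPM in PlaB. All DMSO and all PlaB libraries lay below all Control libraries, as 4.9% of the tested miRNAs did in each of these contrasts. By edgeR the log2 change of its reads was -0.30 in DMSO (SE 0.102, adjusted p = 0.156) and -0.31 in PlaB (SE 0.103, adjusted p = 0.205). Replicate numbers paired the libraries in the read counts, and with the replicate number as a block in edgeR both passed, at an adjusted p of 0.0208 in DMSO, with 6.29% of the miRNAs lower, and of 0.0389 in PlaB, with 5.59% lower.

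miR-30a-5p stood at 579, 391, 565 and 555 CPM in Control. It stood at 652, 568, 691 and 826 CPM in DMSO, and at 679, 463, 462 and 808 CPM in PlaB. The conditions overlapped, through Control replicate 1 and DMSO replicate 2. By edgeR the log2 change of its reads in DMSO was 0.41 (SE 0.193, adjusted p = 0.330). Blocking on the replicate number left the value at 0.41 and passed it (adjusted p = 0.0279, edgeR), with 10.5% of the miRNAs higher. The other 4 tested members had log2 fold changes between -0.04 and 0.21 in all 3 contrasts, and adjusted p-values of 0.684 or more in edgeR without the block.

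The ratio of miR-30a-5p to miR-30e-5p reads needs no scaling between libraries. By itself it does not show reads converted at the position at which their sequences differ. miR-30a-5p reads were 2.33%, 1.77%, 2.55% and 2.55% of miR-30e-5p reads in Control. They were 3.20%, 2.69%, 3.09% and 3.60% in DMSO, and 2.83%, 2.22%, 2.43% and 3.04% in PlaB. DMSO lay above Control without overlap, by 0.846 percentage points (exact permutation test, two-sided p = 0.0286, adjusted over 3 contrasts 0.0857), and in 4 of 4 replicate numbers (exact sign-flip p = 0.125, the smallest possible). PlaB lay below DMSO by a difference of -0.513 points (exact permutation p = 0.114) and above Control by 0.332 points (exact permutation p = 0.286). When reads with a T>C conversion were left out, the DMSO values were 3.00%, 2.52%, 2.84% and 3.37%, and the lowest of them was below 2 of the 4 Control values of 2.33%, 1.77%, 2.55% and 2.54%. Leaving out converted reads removed 6.82% of miR-30a-5p reads and 0.123% of miR-30e-5p reads in DMSO, so the share had to fall. A miR-30e-5p read converted at position 13 but counted as miR-30a-5p would show no conversion there. This step therefore cannot separate such reads. Converted reads counted for miR-30e-5p in DMSO, over all its T positions, were 25.5 when scaled as CPM. Mean miR-30a-5p levels were 523 CPM in Control and 684 CPM in DMSO. What part reads converted at position 13 of miR-30e-5p have in these values was not tested.

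**Figure D5:**
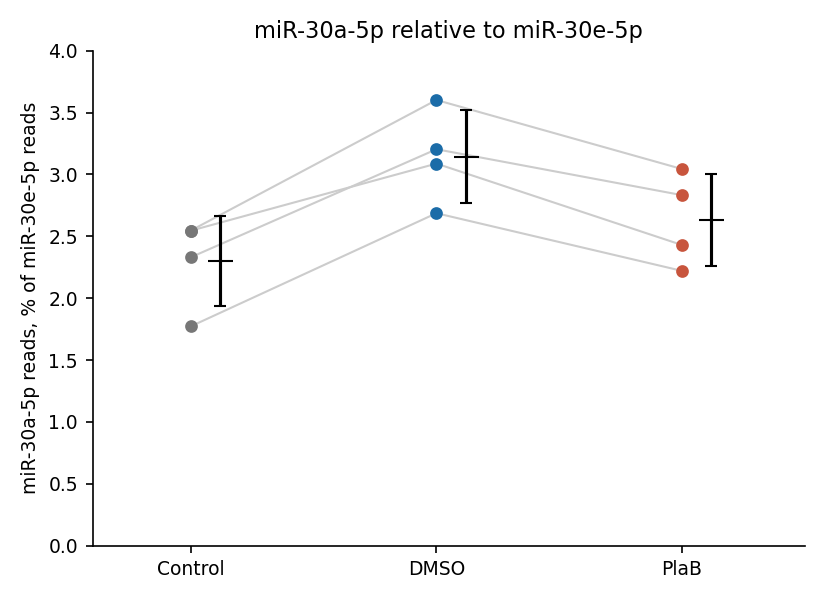
Reads of miR-30a-5p as a percentage of those of miR-30e-5p in each library, with grey lines joining libraries of the same replicate number and black bars at the mean ± SD of each condition (n = 4). The 4 DMSO libraries lie between 2.69% and 3.60% and the 4 Control libraries between 1.77% and 2.55%, and the 4 PlaB libraries lie between 2.22% and 3.04%.

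The other arms of the same hairpins were rarer. miR-30c-1-3p, the 3p strand of MIR30C1, had 39.0, 38.0, 35.3 and 41.9 CPM in Control. It had 12.1, 14.3, 18.7 and 9.65 CPM in DMSO, and 13.8, 5.56, 4.39 and 20.9 CPM in PlaB. It was lower in both conditions with 4SU. In an edgeR fit over the 537 miRNAs that passed filterByExpr, in which 5.03% were lower in DMSO and 6.33% lower in PlaB than in Control, its reads fell by 1.48 on the log2 scale in DMSO (SE 0.388, adjusted p = 0.0307) and by 1.78 in PlaB (SE 0.401, adjusted p = 0.00992).

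miR-30b-3p had 29.98, 15.0, 16.0 and 8.79 CPM in Control and 7.99, 6.41, 3.94 and 6.60 CPM in DMSO. In PlaB it had 0.657, 1.52, 4.39 and 7.33 CPM, 25 reads in all. The same edgeR fit gave a log2 change of -2.26 for PlaB against Control (SE 0.574, adjusted p = 0.0220) and of -1.43 for DMSO against Control (SE 0.529, adjusted p = 0.159). Neither arm passed in PlaB against DMSO, where 0.372% of the miRNAs were lower. miR-30d-3p (177 reads over all libraries) and miR-30a-3p did not pass in any contrast of this fit, and miR-30c-2-3p had 30 reads over all libraries.

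Both rare arms that passed in reads against Control were labelled at high rates. Rare arms that did not pass also had high pooled DMSO rates, 2.07% for miR-30a-3p and 1.16% for miR-30d-3p, the latter from DMSO replicate 2 alone. The DMSO rates of miR-30c-1-3p were 2.43%, 2.43%, 2.26% and 2.26%, from 8, 8, 6 and 3 conversions. Those of miR-30b-3p were 4.49%, 2.98%, 6.25% and 4.81%, from 31, 21, 8 and 13 reads. Neither had a conversion in Control, so only lower bounds can be given. Taking 3 conversions over the 4 Control libraries as the floor, the pooled DMSO value of miR-30c-1-3p was at least 17.3-fold higher and that of miR-30b-3p at least 15.6-fold higher. In PlaB miR-30c-1-3p had 4, 3, 0 and 11 conversions and miR-30b-3p had 0, 1, 0 and 0.

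Outside the family, the tested miRNA nearest to each member in its T>C conversion rates over the 12 libraries was found by Euclidean distance on the log2 scale. It was miR-92a-3p for miR-30c-5p (distance 1.31), miR-192-5p for miR-30d-5p (1.40), miR-125b-5p for miR-30e-3p (2.35) and miR-93-3p for miR-30a-5p (2.94). miR-93-3p had a mean rate of 1.61% in DMSO and 0.837% in PlaB, and miR-192-5p 0.134% and 0.0395%. For miR-30e-5p it was miR-140-3p (4.26), which had no conversion itself, so that its distance came from the 0.5 conversions added to each library.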

How the data were processed

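The authors trimmed the reads (4 bases from each end, reads over 30 bases dropped), aligned what was left to GRCh38 and counted it on miRBase 22 mature coordinates with SLAM-DUNK in nf-core slamseq 1.0.0, keeping multi-mapping reads, with a mapping identity minimum of 0.95 that, by the methods, limits the mismatches of short reads, and masking variants at a fraction of 0.4. The deposited tables give counts of reads, covered T positions and T>C conversions. They also give the authors' CPM and, as a fraction, the T>C conversion rate, and both equalled the values recomputed from the counts.

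Tests covered the 143 miRNAs above 100 CPM in every library that the study's table marks for MirGeneDB 2.1. Read counts were fitted with edgeR 4.0.16 (R 4.3.3, TMM factors, all 12 libraries, no block), and conversions likewise, offset by the log of the covered T positions. SE is the log2 fold change divided by the square root of F. Adjustment was by Benjamini-Hochberg at 0.05. DESeq2 1.42.0, other filters, a replicate block and left-out libraries were alternatives. For single values, the exact permutation test over the 70 labelings of 4 against 4 libraries was run in Python 3.11.15 with numpy 2.4.6. Every number of conversions limits the precision of its rate, and limits cover counting error only, since reads carry no molecular identifiers.

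The methods describe 4 independent experiments. Libraries of the same replicate number correlated in their deviations of log2 CPM (lowest r 0.274), so the numbers pair the read counts. In T>C conversion rates the median r was -0.0180, 0.0128 and 0.129 for the 3 pairs of conditions. Members, lists and named miRNAs (members, other arms of their hairpins, nearest miRNA per member, miR-122-5p) were chosen with earlier results of these data known.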

Additional observations from a re-analysis of the deposited data

Results flagged for a closer look

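Over 39 groups of 4 libraries, 5 had a library whose gap to its nearest neighbour, as a share of the range, exceeded Dixon's 95% critical value. By chance about 1 in 20 groups is flagged, except where most rates are 0, as given below for miR-30a-3p. The Control library with 391 CPM of miR-30a-5p (replicate 2) lay below the other Control libraries, and the Control library with 24822 CPM of miR-30e-5p (replicate 1) lay above them. DMSO replicate 3 had a T>C conversion rate of 0.0122% for miR-30e-5p, below the other DMSO libraries at 0.0224% to 0.0242%. For miR-30a-3p, Control replicate 4 had a rate of 0.862% from 2 conversions, and PlaB replicate 1 had 3.33% from 4 conversions, whereas the other libraries of each of these conditions had none. A group with a single library above 0 is always flagged, so these flags carry no weight.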

How the results depend on the processing

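With 4 libraries per condition the exact tests cannot go below 0.0286, and rates from under 10 conversions per library are coarse. In conversions, the 5, 4 and 5 members that passed in DMSO against Control, PlaB against DMSO and PlaB against Control also passed in every alternative fit, those with a replicate block and without both combined DMSO libraries included. miR-30e-5p passed in no fit of PlaB against DMSO. No member's value changed sign in a contrast where it had passed. Without subtraction of Control the PlaB/DMSO ratio was 0.383 for miR-30d-5p and 0.434 for miR-30c-5p.

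In DMSO against Control, the miR-30a-5p share of miR-30e-5p reads had an unadjusted exact p of 0.0286 and an adjusted p of 0.0857, so it did not pass the adjusted threshold. It was 0.636 points higher in reads without a conversion (exact p = 0.0857) and 1.05 points higher without both combined DMSO libraries, where 2 against 4 libraries cannot reach 0.05. With pairing by replicate number it was 0.846 points (exact p = 0.125). With single libraries left out it ranged from 0.670, without Control replicate 2, to 0.998, without DMSO replicate 2, with an unadjusted exact permutation p of 0.0286 in the 4 cases that left out a DMSO library and of 0.0571 in the 4 that left out a Control library. For the PlaB against DMSO change in T>C conversion rate relative to miR-30e-5p, 8 cases left out a single DMSO or PlaB library. The unadjusted exact permutation p stayed at 0.0286 in 3 of these cases for miR-30c-5p and in 2 for miR-30d-5p.

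For reads in DMSO against Control, 6 of the tested miRNAs passed. DESeq2 gave 10 with 1 member, filterByExpr 32, no filter 43, the replicate block 24 with 2 members and the fit without both combined DMSO libraries 3. In PlaB against DMSO 1 passed, 2 with filterByExpr, 5 with no filter, 0 with the 2 conditions alone and 0 without both combined DMSO libraries, and 0 with any single library left out except Control replicate 1 or DMSO replicate 2, which gave 1. In PlaB against Control 5 passed, 36 with filterByExpr, 48 with no filter and 8 with the replicate block, 1 of them a member. For conversions, 119 passed in DMSO against Control and 194 among miRNAs with 10 or more conversions. The counts were 69 and, without both combined DMSO libraries, 44 in PlaB against DMSO, and 78 and, among miRNAs with 10 or more conversions, 128 in PlaB against Control. The cause of these differences was not tested beyond the number of miRNAs or libraries that entered each fit.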
